A study of Homo sapiens with 33 samples.

Results

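The histone mark H3K4me1 was compared between EZH2-/- (Null) and EZH2+/+ (WT) human ESCs at every start-site window on chromosomes 1 to 22. The table held 153958 windows of 5 kb, each centered on an annotated transcription start site, and the 149487 windows on these chromosomes were used, which carried 34447 gene names. The change of a window was its H3K4me1 level in EZH2-/- ESCs minus its level in EZH2+/+ ESCs, on the log2 scale of RPM (reads of a window scaled to the size of its library), so that a change of 1 is a doubling. Input chromatin, which is digested chromatin sequenced without an antibody, was measured in the same windows as the control.

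The study profiled 4 histone marks and input by native ChIP-seq, and RNA by mRNA-seq, in SSEA4-sorted cells of the H9 human ESC line, which was grown on irradiated mouse fibroblast feeders in every group. EZH2+/+ cells were the parental line, and EZH2-/+ (Het) cells were a CRISPR/Cas9 clone with a frameshift in 1 allele. The EZH2-/- line was obtained by targeting an EZH2-/+ line again while a doxycycline-inducible EZH2 transgene was switched on, and was then kept without doxycycline. In the Null+EZH2 group doxycycline had restored EZH2 from that transgene, at RNA levels above those of EZH2+/+ cells. Each mutant genotype was therefore represented by clonal cells, and a difference between clones and a difference between genotypes cannot be told apart. Each ChIP-seq group was a single column of averaged libraries, so no ChIP-seq difference has a replicate test. Each RNA-seq group had 3 libraries. The groups are called WT, Het, Null and Null+EZH2.

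H3K4me1 is monomethylation of lysine 4 of histone H3, which is deposited mainly by the KMT2C and KMT2D enzymes and marks enhancers and the flanks of promoters. Start sites with strong H3K4me3 usually carry H3K4me1 on either side of the start rather than at it. EZH2 is the catalytic subunit of Polycomb repressive complex 2 (PRC2), which places H3K27me3 on CpG-rich promoters of developmental genes, many of which also carry H3K4me3 in ESCs and are then called bivalent.

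EZH2 RNA, the check of the genotype labels, was 68.6, 63.3 and 59.5 RPM in the 3 WT libraries and 11.5, 8.65 and 9.68 RPM in the 3 Null libraries (log2 change -2.68, SE 0.17, limma adjusted p = 4.4e-06). The groups did not overlap. The averaged H3K4me1 columns held 11.5 M reads per library in WT, 9.18 M in Het, 12.2 M in Null and 18.5 M in Null+EZH2 cells, and the inputs of WT and Null cells held 23.8 and 17.8 M. The summed RNA level of 8 ESC markers was 3320 to 4289 RPM in WT and 4154 to 4523 RPM in Null libraries, so the sorted cells of both groups expressed the markers of their label. The summed level of 6 fibroblast markers was 213 to 304 RPM in WT and 92.1 to 341 RPM in Null libraries, with DCN at or near 0 in all of them. In RNA from bulk samples, fewer cells of a type and less RNA per cell cannot be told apart.

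Promoters of members with different behavior are shown to let their CpG content be compared with their H3K4me1 values, with every CG in capitals. The first 5 are from RefSeq (GRCh38.p14), run from 250 bases before to 50 bases after the start and are written 5′ to 3′ on the strand of the gene. HOXD13 (chr2:176092471-176092770, plus strand) and HAND1 (chr5:154478178-154478477, minus strand) carried H3K27me3 in WT cells and gained H3K4me1. TRIM38 (chr6:25962552-25962851, plus strand) and GNA14 (chr9:77648273-77648572, minus strand) gained more without H3K27me3 above the threshold. RBM11 (chr21:14215907-14216206, plus strand) had less H3K4me1 in Null cells, as did a large surrounding region. The last sequence, read from GRCh38, surrounds the internal start site of UBE4B that had the largest fall among windows of at least 2 RPM chosen 1 per gene name (chr1:10178866-10179165, plus strand).
HOXD13: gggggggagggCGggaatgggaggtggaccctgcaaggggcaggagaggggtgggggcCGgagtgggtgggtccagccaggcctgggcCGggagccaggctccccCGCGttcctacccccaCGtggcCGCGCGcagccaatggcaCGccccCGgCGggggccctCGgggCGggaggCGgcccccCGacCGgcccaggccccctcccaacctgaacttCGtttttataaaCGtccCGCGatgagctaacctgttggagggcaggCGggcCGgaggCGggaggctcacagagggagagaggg
HAND1: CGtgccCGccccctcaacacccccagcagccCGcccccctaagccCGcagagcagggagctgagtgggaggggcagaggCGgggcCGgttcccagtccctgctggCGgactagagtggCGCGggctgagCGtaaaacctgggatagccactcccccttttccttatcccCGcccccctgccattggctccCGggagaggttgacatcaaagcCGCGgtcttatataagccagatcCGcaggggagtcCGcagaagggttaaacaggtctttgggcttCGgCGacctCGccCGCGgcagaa
TRIM38: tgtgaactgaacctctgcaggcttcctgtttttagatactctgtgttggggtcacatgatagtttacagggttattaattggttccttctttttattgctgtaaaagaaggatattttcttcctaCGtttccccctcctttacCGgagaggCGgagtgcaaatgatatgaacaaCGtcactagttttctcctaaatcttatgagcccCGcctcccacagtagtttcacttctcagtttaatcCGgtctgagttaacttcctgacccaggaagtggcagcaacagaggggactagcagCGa
GNA14: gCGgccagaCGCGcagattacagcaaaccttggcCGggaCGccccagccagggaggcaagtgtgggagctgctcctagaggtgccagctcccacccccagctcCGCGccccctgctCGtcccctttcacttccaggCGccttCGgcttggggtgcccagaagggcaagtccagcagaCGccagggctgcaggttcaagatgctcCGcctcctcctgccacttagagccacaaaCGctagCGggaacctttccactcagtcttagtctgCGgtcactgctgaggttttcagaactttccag
RBM11: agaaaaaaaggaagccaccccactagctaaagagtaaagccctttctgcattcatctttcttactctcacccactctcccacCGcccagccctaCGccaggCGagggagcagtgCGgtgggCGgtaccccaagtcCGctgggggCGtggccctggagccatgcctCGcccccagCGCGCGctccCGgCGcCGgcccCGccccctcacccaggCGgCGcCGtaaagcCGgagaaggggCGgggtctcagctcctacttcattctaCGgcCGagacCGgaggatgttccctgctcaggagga
UBE4B internal start: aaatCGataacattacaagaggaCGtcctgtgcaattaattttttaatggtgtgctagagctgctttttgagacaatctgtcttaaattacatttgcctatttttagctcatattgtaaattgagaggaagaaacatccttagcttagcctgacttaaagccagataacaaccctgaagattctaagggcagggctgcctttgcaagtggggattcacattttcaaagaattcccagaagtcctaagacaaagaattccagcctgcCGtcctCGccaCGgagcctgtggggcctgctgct
The dinucleotide CG, which reads the same on both strands, occurred 24 times in HOXD13, 21 times in HAND1, 7 times in TRIM38, 15 times in GNA14, 23 times in RBM11 and 5 times at the UBE4B site. Among the 33725 RefSeq promoters of this length on chromosomes 1 to 22, 96% held at least 1 CG and the median was 14. As many as HOXD13 were found in 34.2% of them, as many as RBM11 in 36% and as many as TRIM38 in 63.1%. CG-rich promoters were thus found at genes that gained H3K4me1 and at a gene with less of it in Null cells.

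Across all windows H3K4me1 differed little at the median and spread widely. The median level was 2.73 RPM in WT, 2.78 RPM in Het, 2.87 RPM in Null and 2.62 RPM in Null+EZH2 cells, and the median change in Null cells was 0.06 with an interquartile range of -0.29 to 0.35. H3K4me1 was at least 1 higher on the log2 scale in 1663 windows (1.11% of all) and at least 1 lower in 7198 windows (4.82%). After level centering, which subtracts the median change of windows of like mean level, 2493 windows were at least 1 higher and 2532 at least 1 lower, which were nearly equal counts. Input passed the same limits in 46 windows (0.0308%) upward and 82 windows (0.0549%) downward. The H3K4me1 differences thus passed this limit more often than the input differences. Against the same WT column, 0.528% of windows in Het cells and 0.391% in Null+EZH2 cells were at least 1 higher, and 2.34% and 2.46% were at least 1 lower. Counting error alone gave the H3K4me1 change of a typical window a standard error of 0.25, and it covers neither cultures nor clones.

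Most of the windows that fell had little H3K4me1 to begin with. Among the 103372 windows with a mean of at least 2 RPM over both columns, 1246 rose by 1 or more (1.21%) and 396 fell by 1 or more (0.383%), so rises outnumbered falls there. Many windows belong to alternative starts of the same gene and overlap. In 53993 windows that did not overlap, the median change was -0.03, so the sign of the overall median depended on how densely spaced starts were counted.

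**Figure D1:**
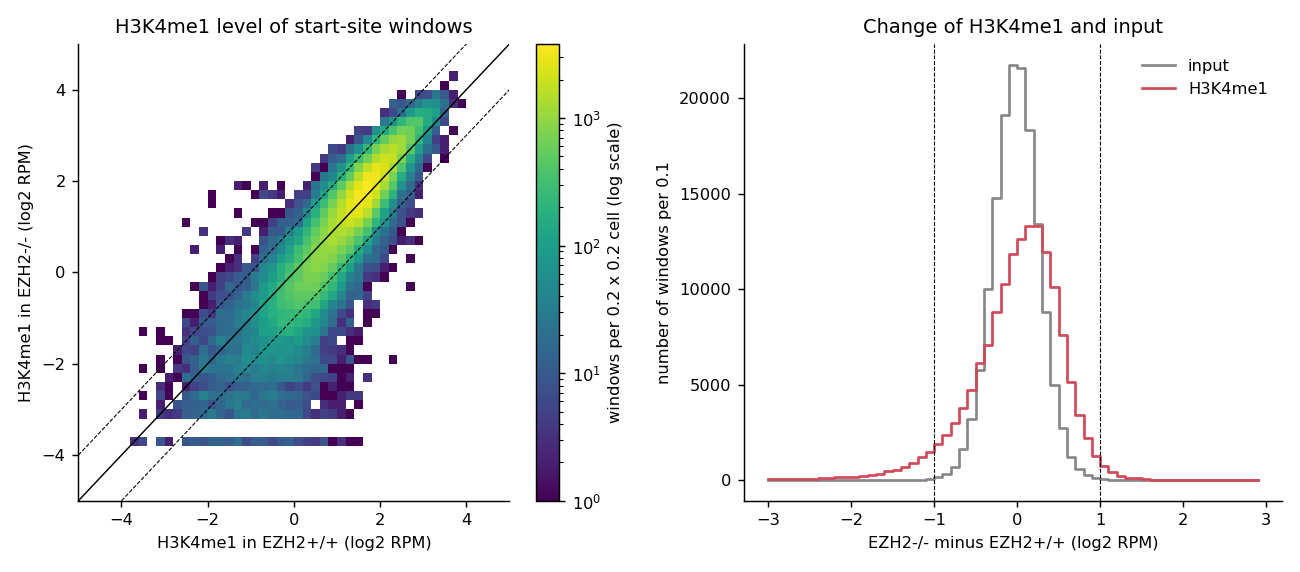
Left, H3K4me1 level of each of the 149487 windows in EZH2+/+ (x axis, log2 RPM) and EZH2-/- ESCs (y axis, log2 RPM), with color for the number of windows per cell on a log scale, a solid line at equality and dashed lines at a change of 1 either way. Right, histogram of the change (EZH2-/- minus EZH2+/+, log2 RPM) for H3K4me1 in red and input in gray (y axis, number of windows per step of 0.1): the H3K4me1 curve is wider than the input curve and has a longer left tail.

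The change followed the level of the mark. The standard deviation of the H3K4me1 level over windows was 0.845 (log2) in WT, 0.968 in Het, 1.15 in Null and 1.01 in Null+EZH2 cells, while for input it was 0.356 in WT and 0.359 in Null cells. When windows were placed in 10 groups of equal size by their level in Het cells, a column outside the comparison, the median change was -0.54 in the lowest group and 0.35 in the highest. In the lowest group the median level was 0.95 RPM in WT and 0.65 RPM in Null cells, and in the highest it was 5.38 and 6.91 RPM. Low windows were lower and high windows were higher in Null cells. In Null+EZH2 cells the same groups differed from WT cells by -0.39 and 0.16. The comparisons of the other genotypes share the WT column with this one. Enrichment of the antibody step over background differs between libraries and can widen such a spread; its part was not tested, and changes centered on windows of like mean level are therefore given beside the main values as level-centered changes.

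Windows with H3K27me3 in WT cells gained H3K4me1. A window was counted as carrying H3K27me3 when its H3K27me3 was above 0.1 and its input below 0.1 log2 RPKM in WT cells, which is RPM per kb of window. In these 18559 windows the median H3K4me1 level was 3.51 RPM in WT, 3.74 RPM in Het, 4.54 RPM in Null and 3.57 RPM in Null+EZH2 cells, with input at 1.35 RPM in WT and 1.37 RPM in Null cells. The Null level was the highest and the restored level was close to that of WT cells. The median change was 0.35 in windows with and 0.01 in the 130928 windows without H3K27me3, and 87.5% of the former were higher in Null cells against 50.6% of the latter. After level centering the medians were 0.13 and -0.02, which left 0.15 of a difference of 0.35. At a matched level in Het cells windows with H3K27me3 also had the higher median, with -0.13 against -0.54 in the lowest group, 0.23 against -0.35 in the second lowest, 0.31 against 0.02 in the fifth and 0.41 against 0.33 in the highest. In the lowest group windows with H3K27me3 were thus also lower in Null cells.

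H3K4me3 in WT cells, counted as present above 0.1 log2 RPKM, divided the windows further. In the 15635 bivalent windows the H3K4me1 change had a median of 0.36 (level-centered 0.12), and in the 2924 windows with H3K27me3 alone it was 0.34 (level-centered 0.21). In the 55027 windows with H3K4me3 alone it was 0.12, which turned to -0.03 after level centering. In the 75901 windows with neither mark it was -0.13 (level-centered -0.01), with an interquartile range of -0.54 to 0.25. Of the 7198 windows that fell by 1 or more, 7015 carried neither mark. Rises of 1 or more made up 3.97% of the windows with H3K27me3 alone, 1.86% of bivalent windows, 0.34% of windows with H3K4me3 alone and 1.41% of windows with neither mark. Both kinds of H3K27me3 window had median changes of 0.02 and 0.04 in Null+EZH2 cells and of 0.01 and 0.03 in the Null input.

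**Figure D2:**
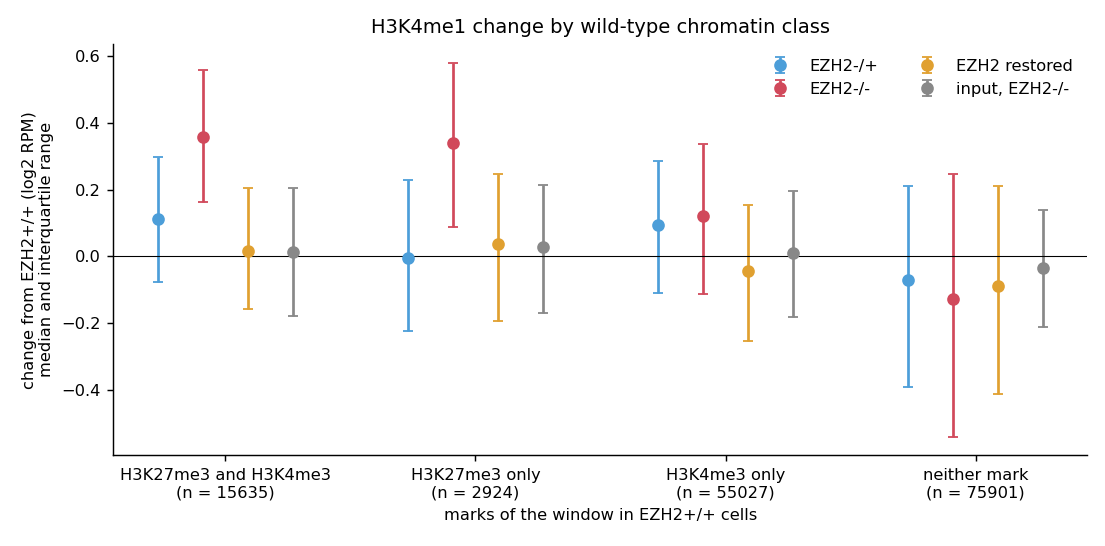
Change from EZH2+/+ ESCs (y axis, log2 RPM) in windows grouped by the marks they carried in EZH2+/+ cells (x axis), as median (point) and interquartile range (bar) over windows, for H3K4me1 in EZH2-/+ (blue), EZH2-/- (red) and Null+EZH2 cells (orange), and for input in EZH2-/- cells (gray). The red points stand at 0.36 and 0.34 in both classes with H3K27me3, where the orange and gray points are near 0.

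Over all windows the change rose with the H3K27me3 level in WT cells. Over 10 groups of windows ordered by H3K27me3 in WT cells, the median H3K4me1 change ran from -0.30 in the lowest group, at 0.47 RPM of H3K27me3, to 0.36 in the highest, at 13.1 RPM, and the level-centered change ran from -0.08 to 0.13. It ran from -0.17 to 0.21 over 5 groups ordered by the column titled as EZH2 ChIP-seq of WT cells, whose antibody label reads None, and from -0.26 to 0.20 over 5 groups ordered by CpG content. After level centering, the CpG and EZH2 groups lay between -0.01 and 0.02. Windows counted as carrying H3K27me3 lay only in groups 9 and 10 of the H3K27me3 order, with median changes of 0.31 and 0.36. Over the 5 EZH2 groups such windows had medians of 0.30, 0.36, 0.38, 0.40 and 0.34, which showed no steady rise. Across the 149487 windows the H3K4me1 change had a Pearson r of 0.50 with the change of H3K27ac, 0.42 with that of H3K4me3, -0.40 with that of H3K27me3 and 0.08 with that of input. These are descriptions across windows, which overlap and whose marks were measured in separate libraries of the same sorted cells.

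The largest single rises were seen at genes of varied kinds. For each gene name the window with the most H3K4me1 was used, and of the 34447 names 459 rose by 1 or more (1.33%) and 1677 fell by 1 or more (4.87%). The 15 largest rises among windows of at least 2 RPM lay between 1.46 and 1.80. Their levels were 1.48 to 2.83 RPM in WT and 4.41 to 8.15 RPM in Null cells, and the input changed by -0.25 to 0.27. Of the 15, 4 carried H3K27me3, against 19.3% of all gene names whose window reached 2 RPM. HOXC13, a HOX gene of the hair follicle and posterior body axis, had 2.30 RPM in WT, 2.65 RPM in Het, 7.48 RPM in Null and 2.34 RPM in Null+EZH2 cells at chr12:53936265-53941265 (change 1.70, counting SE 0.23). Its Null value stood alone, and the restored value lay beside that of WT cells. HBA2, an alpha-globin gene that shares near-identical sequence with HBA1, had 2.83, 4.08, 8.15 and 4.71 RPM in the same order and carried 39.3 RPM of H3K27me3 in WT cells. Because of the shared sequence its reads are uncertain.

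TRIM38, which encodes an E3 ubiquitin ligase of innate immune signaling, had 2.40 RPM in WT, 4.62 RPM in Het, 7.37 RPM in Null and 5.66 RPM in Null+EZH2 cells at the window around the promoter printed above (change 1.62, counting SE 0.22). Both the heterozygous and the restored level were above that of WT cells. Its RNA was 0.777, 0.380 and 0.590 RPM in WT and 11.0, 11.3 and 10.0 RPM in Null libraries (log2 change 4.04, SE 0.30, limma adjusted p = 6.2e-06). GNA14, a G protein alpha subunit, had 2.03, 2.72, 5.82 and 3.73 RPM of H3K4me1 in the same order, and its RNA went from a mean of 0.0763 RPM to 10.2 RPM (log2 change 5.92, SE 0.52, limma adjusted p = 1.7e-05). MT1G, a metallothionein that binds zinc and copper, had 1.68, 3.03, 5.47 and 3.49 RPM of H3K4me1 and also gained RNA, from 0.335 to 9.80 RPM (log2 change 4.34, SE 0.57, limma adjusted p = 0.00022). Reads of MT1G are uncertain, since metallothionein genes resemble each other. RNA did not follow at every such window. RNA of ZNF18, a zinc finger gene whose window lay 6.46 kb inside the gene and had 1.91 RPM in WT and 6.25 RPM in Null cells, fell by 0.61 (limma adjusted p = 0.022). Of the 8 genes in this group with testable RNA, 3 were higher and 2 lower, against 11.4% and 19.4% of all gene names with a window and an RNA test.

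The 10 largest falls were mostly at noncoding RNA genes and internal starts. They lay between -2.31 and -1.59, from 3.66 to 6.45 RPM in WT to 1.13 to 1.65 RPM in Null cells, while the input changed by -0.86 to 0.29. The largest was at a start 146 kb into UBE4B, a gene for a ubiquitin chain elongation factor, in an exon of its annotation (chr1:10176516-10181516). That window had 6.45 RPM in WT, 4.35 RPM in Het, 1.30 RPM in Null and 2.77 RPM in Null+EZH2 cells (change -2.31, counting SE 0.28). The gene had 10 windows, whose changes ran from -2.31 to 0.42, and its RNA was 122 ± 15.0 RPM in WT and 102 ± 7.67 RPM in Null libraries (SD, n = 3, limma adjusted p = 0.22, or 0.039 in a blocked fit, in which libraries with the same replicate number were compared with each other). LINC01549 and NRIP1 of chromosome 21, which were also among these falls, had restored levels of 1.32 and 1.31 RPM, next to their Null levels of 1.56 and 1.13 RPM.

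**Figure D3:**
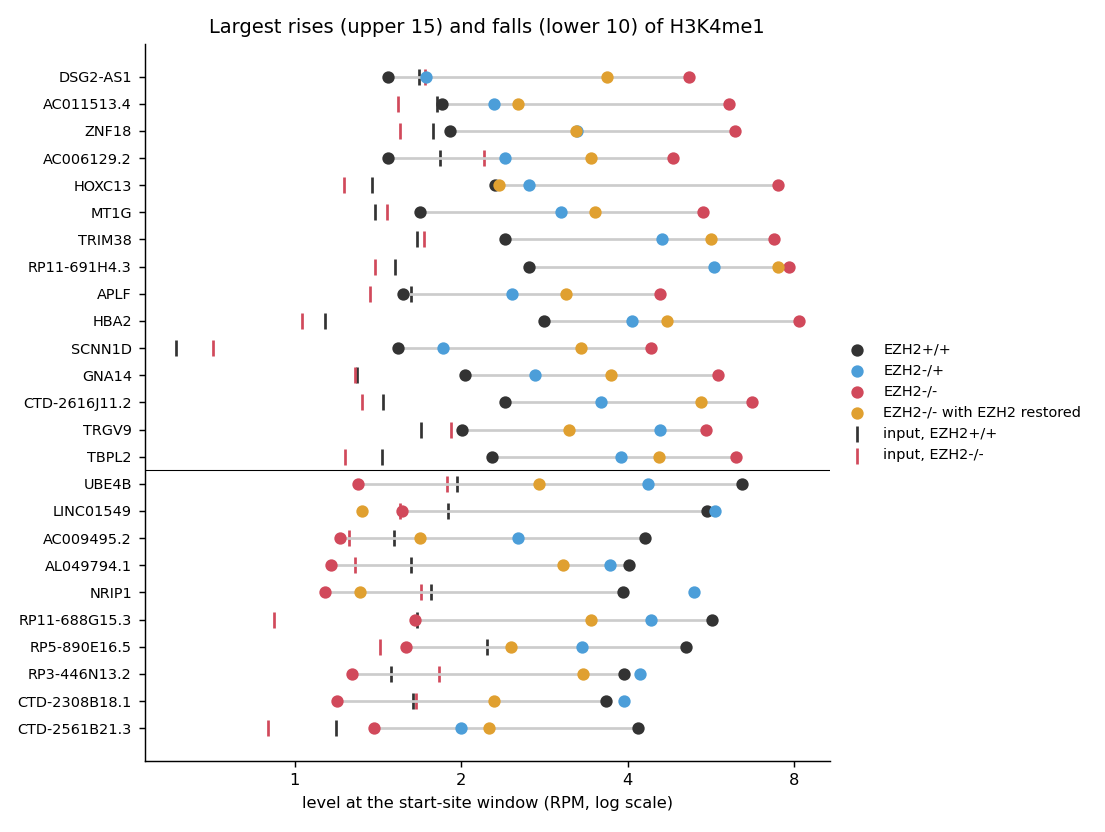
H3K4me1 level (x axis, RPM on a log scale) at the window of each gene (y axis) in EZH2+/+ (black), EZH2-/+ (blue), EZH2-/- (red) and Null+EZH2 ESCs (orange), 1 value per genotype, with ticks for the input of EZH2+/+ (black) and EZH2-/- cells (red). The upper 15 genes had the largest rises and the lower 10 the largest falls, and HOXC13 shows a restored value beside that of EZH2+/+ cells.

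The risen windows differed by class in how near their level in Null+EZH2 cells was to that of WT cells. Of the 1246 windows of at least 2 RPM that rose by 1 or more, 377 carried H3K27me3, and their level in Null+EZH2 cells was nearer to that of WT than to that of Null cells in 184 (48.8%). The same was true of 41 of 165 windows with H3K4me3 alone (24.8%) and of 118 of 704 windows with neither mark (16.8%). Among the 396 windows that fell by 1 or more, windows with H3K27me3 had the lowest such share, 2 of 19 (10.5%), against 12 of 29 with H3K4me3 alone (41.4%) and 120 of 348 with neither mark (34.5%). Median levels in the risen H3K27me3 windows were 2.73 RPM in WT, 3.66 RPM in Het, 5.91 RPM in Null and 4.07 RPM in Null+EZH2 cells. In the risen windows with neither mark they were 2.22, 2.98, 5.01 and 3.85 RPM. These windows were chosen by the difference between WT and Null cells, which places the other columns between them in part by construction. The risen windows with neither mark had a median of 1.38 CpG per 100 bases, against 1.20 in all windows with neither mark, and the risen windows with H3K27me3 had 3.28, against 3.68 in all windows with H3K27me3. CpG content of the risen windows was thus near that of their class.

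All 39 HOX genes, which encode the transcription factors that pattern the body axis, had more H3K4me1 in Null cells, against 60.1% of all gene names, and 32 of them did after level centering and 38 with the input change subtracted. The median change over the 39 genes was 0.54 (level-centered 0.20), against 0.12 (level-centered 0.02) over all gene names, 20 rose by 0.5 or more, against 16.6% of all, and 3 rose by 1 or more. These were HOXC13, HOXC10 and HOXC9. HOXC10 had 3.67 RPM in WT, 4.04 RPM in Het, 8.26 RPM in Null and 3.23 RPM in Null+EZH2 cells, and HOXC9 had 3.75, 4.74, 8.11 and 4.49 RPM. The smallest changes were 0.11 at HOXA11 and 0.13 at HOXB3, which were negative after level centering. H3K27me3 was present at all 39 genes in WT cells.

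The clusters differed in the size of the gain. The 22 windows of HOXC, from 53936265 to 54056377 on chromosome 12 of GRCh38, had a median H3K4me1 level of 3.59 RPM in WT, 4.00 RPM in Het, 7.00 RPM in Null and 3.38 RPM in Null+EZH2 cells, and their changes ran from 0.36 to 1.77 with a median of 0.90. The 32 windows of HOXB on chromosome 17 (48528410 to 48731678) had 4.80, 4.04, 7.06 and 4.69 RPM (median change 0.68), and their input was 1.63 RPM in WT and 1.47 RPM in Null cells. The 37 windows of HOXA on chromosome 7 (27093474 to 27202606) had 3.82, 3.63, 5.80 and 3.32 RPM (median change 0.53). The 21 windows of HOXD on chromosome 2 (176090391 to 176191079) had 3.89, 3.84, 5.57 and 4.03 RPM (median change 0.42). In each cluster the Null level was the highest of the 4 genotypes, and the restored level was nearer to WT than to Null cells. H3K27me3 in the same windows fell from 50.9 to 3.85 RPM in HOXC and was 45.9 RPM in Null+EZH2 cells.

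RNA of the HOX genes moved in both directions. Of the 23 HOX genes with testable RNA, 12 were higher and 2 lower in Null cells, against 11.4% and 19.4% of all gene names with a window. HOXD13, a gene of the distal limb, had 3.45 RPM of H3K4me1 in WT and 6.06 RPM in Null cells, and its RNA was 0.0200, 0.0507 and 0.0197 RPM in WT and 2.13, 4.37 and 2.49 RPM in Null libraries (limma adjusted p = 4.4e-06). HOXB1, the most 3′ gene of its cluster, gained H3K4me1 from 8.85 to 14.2 RPM, while its RNA was 13.8, 35.8 and 7.65 RPM in WT and 2.78, 2.97 and 4.87 RPM in Null libraries (limma adjusted p = 0.0074). More H3K4me1 was therefore found at HOX genes whose RNA rose and at HOX genes whose RNA fell.

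**Figure D4:**
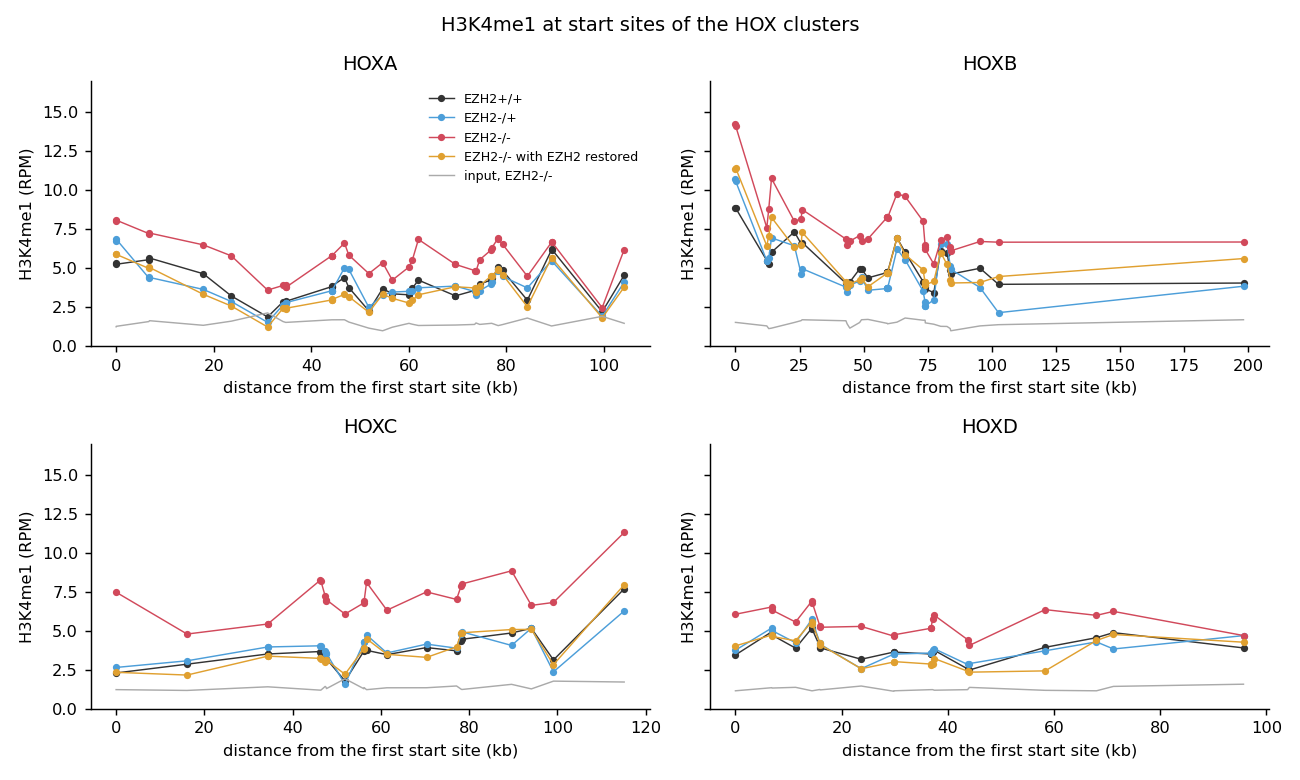
H3K4me1 level (y axis, RPM) of each start-site window of the HOXA, HOXB, HOXC and HOXD clusters against its distance from the first start site of the cluster (x axis, kb), in EZH2+/+ (black), EZH2-/+ (blue), EZH2-/- (red) and Null+EZH2 ESCs (orange), with the EZH2-/- input in gray. The red points lie above the black points in all 112 windows, 100 of which were also higher after level centering and 110 with the input change subtracted.

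Regulators of the germ layers also had more H3K4me1. Their median changes lay near the 0.36 of all bivalent windows, and their level-centered medians, 0.03 to 0.08, near the 0.02 of all gene names. Of 38 mesoderm and heart regulators 36 were higher (21 after level centering), against 60.1% of all gene names, with a median change of 0.40 (level-centered 0.05), and 17 rose by 0.5 or more, against 16.6% of all. TBX3, a T-box factor of heart and limb, had 3.59 RPM in WT, 4.48 RPM in Het, 8.71 RPM in Null and 5.21 RPM in Null+EZH2 cells (change 1.28, counting SE 0.19), and its RNA rose from 1.01 ± 0.49 to 11.2 ± 4.48 RPM (SD, n = 3, limma adjusted p = 0.00044). MESP1, an early mesoderm factor, had 3.37, 5.69, 6.80 and 5.08 RPM of H3K4me1 (change 1.01, input change 0.20). HAND1, a basic helix-loop-helix factor of heart and extraembryonic tissue, had 5.47, 7.15, 8.54 and 6.21 RPM (change 0.64), and its RNA rose from 0.467 to 23.3 RPM (limma adjusted p = 0.0016). TBX2, a T-box relative of TBX3, had the lowest value of the list, at -0.27 (input change -0.17). Input was shifted over the regions around both TBX2 and MESP1. From 60 to 70 Mb of chromosome 17, around TBX2, the median change was -0.21 for input and -0.20 for H3K4me1. From 80 to 90 Mb of chromosome 15, around MESP1, it was 0.17 for input and 0.28 for H3K4me1. RNA was higher for 21 and lower for 2 of the 37 testable mesoderm genes (23 and 4 in the blocked fit). Of all gene names with a window and an RNA test, 11.4% were higher and 19.4% lower. The blocked fit had 3628 higher and 5818 lower among all 20689 genes.

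Of 39 neuroectoderm regulators 35 were higher in H3K4me1 (24 after level centering), against 60.1% of all gene names, with a median change of 0.38 (level-centered 0.08). GBX2, a hindbrain homeobox factor, had 3.22 RPM in WT and 5.99 RPM in Null cells (change 0.89), and its RNA fell by 1.14 on the log2 scale (limma adjusted p = 0.045). RNA was higher for 3 and lower for 8 of the 26 testable neuroectoderm genes, against 11.4% and 19.4% of all gene names with a window. The share with higher RNA was thus near that of all genes. The blocked fit had 4 higher and 13 lower, against 3628 and 5818 of all 20689 genes. Of 19 endoderm regulators 18 were higher in H3K4me1 (11 after level centering), with a median change of 0.35 (level-centered 0.03). SOX17, an endoderm and germ cell factor, had the largest, from 2.12 to 3.78 RPM (change 0.83, counting SE 0.26). Its input also rose, from 1.27 to 1.72 RPM, and with the input change subtracted SOX17 was no longer the largest. RNA was higher for 7 of 18 testable endoderm genes (14 in the blocked fit), against 11.4% of all gene names with a window. It was lower for 0 by limma, against 19.4% of all, also at an unadjusted p under 0.05 and in the blocked fit.

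Of 15 trophectoderm and amnion regulators 12 were higher in H3K4me1 (9 after level centering), against 60.1% of all gene names. Their median change was 0.20 (level-centered 0.12). ELF5, a trophoblast factor, had the largest, at 0.86. Of 33 WNT and BMP pathway genes 30 were higher (18 after level centering), with a median of 0.34 (level-centered 0.04), led by the ligands WNT11 and WNT2 at 0.74 and 0.72. Of 7 cell cycle inhibitors 6 were higher (5 after level centering), with a median of 0.44 (level-centered 0.11). CDKN2A, which encodes the inhibitors p16 and p14ARF, had 3.78 RPM in WT, 4.08 RPM in Het, 6.75 RPM in Null and 3.93 RPM in Null+EZH2 cells (change 0.84, counting SE 0.19), and its RNA rose from 0.409 to 13.0 RPM (limma adjusted p = 4.4e-06).

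Lists in which few genes carried H3K27me3 in WT cells had medians between 0.02 and 0.26. Over all gene names the median was 0.12 (level-centered 0.02), and 60.1% of them were higher. Of 20 housekeeping genes 11 were higher in H3K4me1 (7 after level centering), with a median of 0.06 that turned to -0.04 after level centering, and 0 of them carried H3K27me3. Of 20 pluripotency genes 16 were higher (8 after level centering), with a median of 0.24 that turned to -0.10 after level centering. LIN28A, an RNA-binding protein of the undifferentiated state, had the largest change of this list, 0.72, while its RNA was 981 ± 122 RPM in WT and 885 ± 59.1 RPM in Null libraries (SD, n = 3, limma adjusted p = 0.50). RNA was higher for 12 and lower for 2 of the 20 testable pluripotency genes, against 11.4% and 19.4% of all gene names with a window. The blocked fit had 13 higher and 3 lower. Of 19 H3K4 methylation enzymes and demethylases 15 were higher (8 with the input change subtracted), with a median of 0.15 that turned to -0.02 when the input change was subtracted. Of 10 PRC2 subunit genes 5 were higher, with a median of 0.02 that turned to -0.19 after level centering. AEBP2, a PRC2 accessory subunit, had the largest change of this list, with 2.39 RPM in WT, 3.92 RPM in Het, 5.97 RPM in Null and 5.55 RPM in Null+EZH2 cells (change 1.32, counting SE 0.23). EZH2 itself had 2.64 RPM in WT and 2.33 RPM in Null cells (change -0.18, counting SE 0.27). Of 15 fibroblast and mesenchyme markers 11 were higher (8 after level centering), with a median of 0.26 (level-centered 0.01). RNA of 7 of the 14 testable markers was higher and RNA of 2 was lower (5 in the blocked fit), against the same shares of all gene names. COL3A1, a fibrillar collagen, had a mean of 2.10 RPM of RNA in WT libraries and 4.70, 109 and 47.8 RPM in the Null libraries. The part of such cells in the other results was not tested.

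RNA changes were compared with H3K4me1 changes at the same genes. By limma on all 12 libraries, RNA of 2646 of 20689 genes was higher (12.8%) and RNA of 3900 genes was lower (18.9%) in Null than in WT cells. The median RNA change was -0.13, and after rescaling by the median ratio it was -0.02 with 3344 genes higher and 2934 lower. In the blocked fit 3628 were higher and 5818 lower. Among the 19908 autosomal genes with a window and an RNA test, 11.4% were higher and 19.4% lower. Of the 242 with an H3K4me1 rise of 1 or more, RNA was higher for 89 (36.8%) and lower for 21 (8.68%), or for 101 and 35 in the blocked fit. Of the 264 with a fall of 1 or more, RNA was higher for 17 (6.44%) and lower for 65 (24.6%), or for 28 and 79 in the blocked fit. RNA increases were thus more frequent among genes with risen H3K4me1 than among all genes, and less frequent among genes with fallen H3K4me1. These shares are descriptions and were not tested.

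Risen genes with and without H3K27me3 both showed this. RNA was higher for 36 of 69 risen genes with H3K27me3 (52.2%) and for 53 of 173 without it (30.6%), against 18.9% of all 3562 testable genes with and 9.76% of all 16346 without H3K27me3. Seen from the RNA, the median H3K4me1 change was 0.36 at genes whose RNA was higher, 0.15 at genes whose RNA was lower and 0.16 at genes not called. Of the 2270 genes with higher RNA, 3.92% had an H3K4me1 rise of 1 or more, against 1.22% of all 19908 testable genes, and 62% had a change between -0.5 and 0.5, against 75.3% of all.

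A few large regions had lower H3K4me1 in Null cells at most of their start sites, mostly from low levels in WT cells. The chromosomes were divided into bins of 1 Mb, and 1864 bins held at least 20 windows. The median change of a bin was 1 or more below 0 in 12 bins (0.644%) and 1 or more above 0 in 0 bins, the highest median being 0.72. The 12 bins held 361 windows, of which 284 fell by 1 or more, or 3.95% of all such falls. Of the bins, 5 were on chromosome 21, 2 on chromosome 4 and 1 each on chromosomes 1, 5, 10, 11 and 12. The median H3K4me1 level of the lowest, from 16 to 17 Mb of chromosome 21 (27 windows), was 1.52 RPM in WT, 1.41 RPM in Het, 0.116 RPM in Null and 0.296 RPM in Null+EZH2 cells. The bin from 14 to 15 Mb (34 windows) had 1.23, 0.936, 0.164 and 0.296 RPM. Median input of WT cells was higher than their H3K4me1 in both bins, at 1.84 and 1.77 RPM. Het cells were close to WT cells in both bins. In both bins Null+EZH2 cells lay between WT and Null cells and nearer to Null cells. Their median changes from WT cells were -2.11 and -1.55, against -3.71 and -2.40 in Null cells. From 17 to 18 Mb of chromosome 21 Null+EZH2 cells were instead below Null cells, at 0.507 against 1.03 RPM. Median H3K4me1 of WT cells was above their input only there, from 46 to 47 Mb of chromosome 4 and from 4 to 5 Mb of chromosome 10. In the other bins it did not stand above input.

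Other marks moved in the same bins. The median change in the 12 bins was between -3.71 and -1.17 for H3K4me1, between -2.99 and -1.05 for H3K27ac and between -0.36 and 0.09 for input. H3K4me1 of Het cells differed from that of WT cells by -0.25 to 0.09, and that of Null+EZH2 cells by -2.11 to -0.39. The median change of H3K27me3 in Null cells was above 0 in 11 of the 12 bins, at 0.62 to 2.18. Over all bins it was -0.80, and it was above 0 in 174 of the 1864 bins. Median levels differed from this in the chromosome 1 bin, with a median change of 0.955 but 1.39 RPM in WT and 1.26 RPM in Null cells. In the bin from 16 to 17 Mb of chromosome 21 H3K27me3 was 0.784 RPM in WT, 3.04 RPM in Null and 1.35 RPM in Null+EZH2 cells. RPM are shares of a library, and the part of this scaling in the H3K27me3 changes of the 11 bins was not tested. The exception was a bin on chromosome 4 from 46 to 47 Mb around GABRA2, a GABA receptor subunit gene, where H3K27me3 fell from 17.1 to 2.31 RPM. The change of input in these bins was small beside that of H3K4me1, and without the 12 bins 6914 windows fell by 1 or more. Input was nevertheless shifted on chromosome 21. From 10 to 20 Mb its median change of -0.29 was the lowest of 292 bins of 10 Mb.

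**Figure D5:**
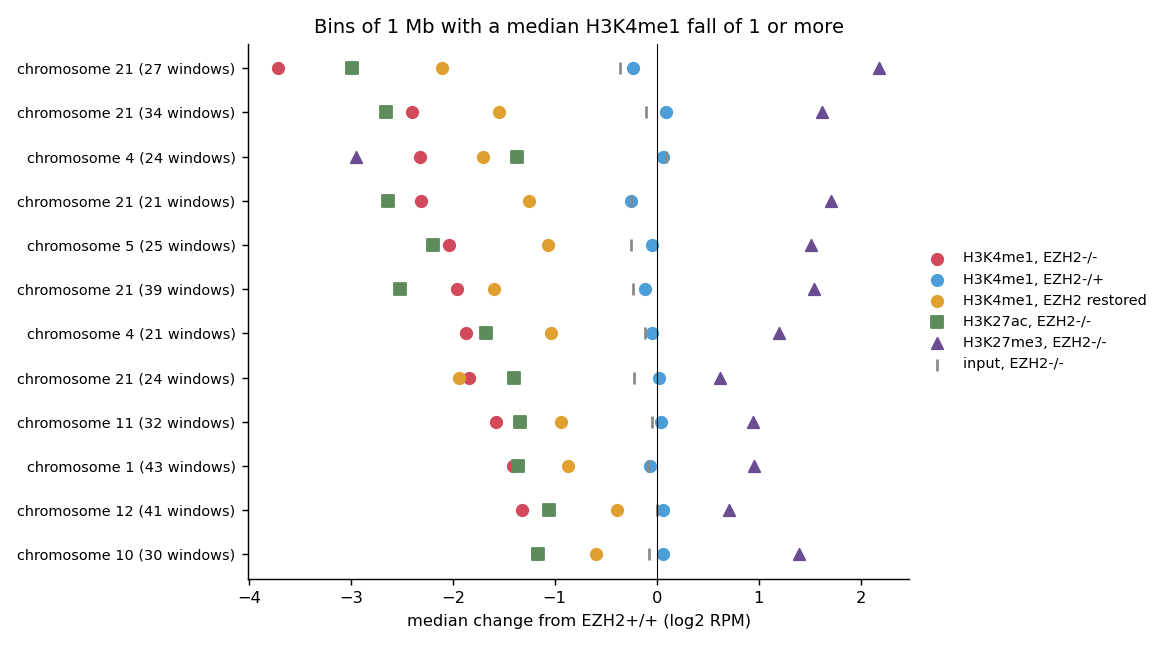
Median change from EZH2+/+ ESCs (x axis, log2 RPM) in each of the 12 bins of 1 Mb whose median H3K4me1 fell by 1 or more (y axis, by chromosome and number of windows), for H3K4me1 in EZH2-/- (red), EZH2-/+ (blue) and Null+EZH2 cells (orange), and for H3K27ac (green squares), H3K27me3 (purple triangles) and input (gray ticks) in EZH2-/- cells. Blue points lie between -0.25 and 0.09 and gray ticks between -0.36 and 0.09. Green squares lie with the red points, and purple triangles lie above 0 in 11 bins.

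RNA was lower for 19 of the 21 testable genes in these bins, against 19.4% of all genes with a window, and higher for 0 by limma, also at an unadjusted p under 0.05 and in the blocked fit. The median RNA change was -1.97. The bins had been chosen by H3K4me1 and not by RNA. On chromosome 21 RNA was lower for 12 of 13 genes and elsewhere for 7 of 8. NRIP1, a corepressor of nuclear receptors, had 3.92 RPM of H3K4me1 in WT, 5.27 RPM in Het, 1.13 RPM in Null and 1.31 RPM in Null+EZH2 cells. Its RNA was 25.7, 26.8 and 13.1 RPM in WT and 5.38, 3.45 and 0.683 RPM in Null libraries (log2 change -3.08, SE 0.62, limma adjusted p = 0.0029). CXADR, the coxsackievirus and adenovirus receptor, had 79.2, 62.0 and 62.8 RPM of RNA in WT and 25.2, 17.7 and 12.1 RPM in Null libraries (limma adjusted p = 0.00055). RBM11, an RNA-binding protein gene whose CG-rich promoter is printed above, had 1.26 RPM of H3K4me1 in WT and 0.135 RPM in Null cells (change -3.22, counting SE 0.84), and its RNA fell from 1.69 ± 0.44 to 0.0695 ± 0.0372 RPM (SD, n = 3, limma adjusted p = 0.00027). The libraries of both groups did not overlap for any of these 3 genes. Mean RNA in Null+EZH2 libraries was 3.96 RPM for NRIP1, 17.9 RPM for CXADR and 0.301 RPM for RBM11, which was closer to the Null means of 3.17, 18.4 and 0.0695 RPM than to the WT means of 21.9, 68.0 and 1.69 RPM. By distance in RPM the same held for 18 of the 19 genes with lower RNA. The exception was CHODL, a C-type lectin gene of chromosome 21, whose RNA was 1.82, 0.761 and 1.09 RPM in WT and 0.264, 0.0939 and 0.0297 RPM in Null libraries, with a mean of 1.22 RPM in Null+EZH2 libraries. With the means taken to the log2 scale, AKR1C1 and AMY2B were also nearer to WT, at 0.897 and 2.16 RPM in Null+EZH2 libraries.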

How the data were processed

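H3K4me1 and input ChIP-seq of EZH2-/- and EZH2+/+ ESCs were compared, with the EZH2-/+ and Null+EZH2 columns as levels beside them. The authors trimmed reads with Trim Galore (0.4.0), mapped ChIP-seq reads with Bowtie2 (2.2.5) and RNA-seq reads with TopHat2 (2.0.12) to GRCh38, extended the ChIP-seq reads and counted reads in SeqMonk, without duplicates within 2.5 kb of start sites for ChIP-seq and without regard to strand for RNA. The deposited values of both tables are log2 RPM, with a feature without reads set to 0.9 of a read. All low values of a histone or input column lay within 0.05 reads of the steps expected for a log2 mean of 2 libraries, although 3 replicates are described, so depth per library was recovered and a counting error computed. It covers counting only. Windows with H3K27me3 in EZH2+/+ cells were found by the thresholds of the study (input below and H3K27me3 above 0.1 log2 RPKM), applied to the deposited values. The H3K4me3 threshold, above 0.1 log2 RPKM with no input condition, was chosen here. Level centering subtracted the median change of windows of like mean level (100 bins). RNA was returned to RPM and tested with limma 3.58.1 (R 4.3.3; lmFit, eBayes with trend, Benjamini-Hochberg) on log2(RPM + 0.1) for genes whose mean reached 0.1 RPM. Fold changes of low genes are too small on this scale. Calls had an adjusted p under 0.05. Replicates were separate samples per the labels, and p-values measure the spread between them. The fits had no block. In 18 of 18 same-number pairs of libraries from different genotypes, deviations from the group means correlated (r 0.11 to 0.56, mean of other pairs -0.16), so the numbers pair the libraries and the blocked counts are given. The RNA fit, depth recovery and level centering were tested on simulated data. Gene models came from GENCODE 44, which held 96.8% of the gene identifiers, and promoters from RefSeq, which matched 15027 of 34447 gene names.

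The members and gene lists were chosen with earlier results of these data known. Named genes were the 15 largest rises and 10 largest falls among genes whose strongest window had a mean of 2 RPM or more, overlapping windows once, list members with the 3 largest or 2 smallest changes, EZH2, and HOXB and HOXD genes. HAND1, COL3A1 and genes of the 1 Mb bins outside this rule were chosen after their values were seen, as were the bins and RNA counts within them. Alternatives tried were other pseudocounts, filters, scalings, window choices, input subtraction and left-out libraries.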

Additional observations from a re-analysis of the deposited data

How the results depend on the processing

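The median H3K4me1 change over all windows, 0.06, was 0.044 with a pseudocount of 1 RPM, 0.107 in windows with a mean of at least 1 RPM, 0.053 with the input change subtracted, 0.056 after centering on windows without H3K27me3, 0.000 after level centering and -0.032 in windows that did not overlap, where its sign turned. The count of windows that rose by 1 or more, 1663, was 225 with a pseudocount of 1 RPM, 4303 with input subtracted, where the counting error of 4 columns adds up, 2493 after level centering and 628 in windows that did not overlap. The count that fell, 7198, was 380, 2403 at a mean of at least 1 RPM, 4268 without overlap and 2532 after level centering. The difference between windows with and without H3K27me3, 0.35, kept its sign and was 0.34 with a pseudocount of 0.1 RPM, 0.28 with 1 RPM, 0.30 at a mean of at least 1 RPM, 0.33 with input subtracted, 0.45 without overlap and 0.15 after level centering. The count of 12 falling bins was 2 with a pseudocount of 1 RPM and 0 at a mean of at least 1 RPM, a filter that removes the windows that fell. The settings without those bins and all settings of the bins were chosen after seeing the data. Level centering turned the medians of windows with H3K4me3 alone, pluripotency, housekeeping and PRC2 genes negative, and input subtraction those of H3K4 enzymes and PRC2 genes. Of 150 values of the 25 genes with the largest changes, all but 1 stayed past 1 the same way. These genes were chosen by the size of that change, and some settings, such as the filter on the mean level, cannot alter it. The count is therefore no test of their changes.

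With the replicate number as a block, RNA was higher for 3628 and lower for 5818 genes, and all 2646 and 3900 calls made without the block were kept. The block raised the RNA decreases in the falling bins from 19 to 20 and the RNA increases among genes with risen H3K4me1 from 89 to 101. With a mean of at least 1 RPM, which tests fewer genes, the latter were 40. Leaving out a library gave 1838 to 2349 genes higher and 2376 to 3419 lower, 17 to 19 decreases in the bins and 72 to 84 increases among risen genes. The lowest count of lower genes came without Null replicate 2 (2376), and 2505 were lower without WT replicate 2. ChIP-seq groups of 1 averaged column allow no such check. At 12.2 M reads per library, 0.116 RPM is about 1 read, so levels of the lowest windows are not resolved.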
